A study of Mus musculus with 6 samples.

Results

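Genes of heart muscle were measured in the lungs of mice with an induced lung cancer that ate a high-fat diet or a regular diet. The genes were *Actc1*, *Myh6*, *Myl4*, *Myl7*, *Nppa*, *Tnnt2*, *Tnni3*, *Ryr2*, *Sln* and *Ckm*. They are 10 of the 18193 genes that had a probe set (a group of short probes for 1 transcript) of their own on the array. Every probe set that the annotation gives to exactly 1 of these 10 genes was taken, which was 17 probe sets of 45101. The question was whether their signal differed between the diets and how far single lungs set such a difference. The genes are a named list, and no measured value entered the rule. The list was, however, chosen with earlier results of these data known.

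The arrays were Affymetrix mouse genome expression arrays, and each held RNA of the dissected lung of 1 mouse. The LC-HFD group (labelled HFD+Dox) had 3 arrays and the LC-RD group (labelled RD+Dox) had 3 arrays. All 6 adult male mice carried both transgenes, CC10-rtTA and tet-O-EGFR-L858R, on a C57BL/6 background and all received doxycycline (Dox), so neither group was free of tumor induction. The CC10 promoter drives the activator in epithelium of the lung and airways, and Dox then switches on mutant human EGFR there. LC-HFD mice ate a high-fat diet, in which fat supplied 60% of the energy, and LC-RD mice ate a regular diet. By the labels the diet ran until 8 weeks and was followed by 7 weeks of Dox at 625 ppm in the food and 2 mg/ml in the water. The diet did not end there, because the paper describes a switch to the same diet with Dox added. The groups therefore differed in diet during Dox as well. The labels' weeks of diet may be an age, since the paper started the diets in young adult mice shortly before Dox. The paper gives a longer Dox period than the labels.

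Heart muscle contracts when calcium leaves its internal store through the ryanodine receptor, binds troponin on the thin filament and lets myosin heads pull on actin. Atria and ventricles use partly different myosin light chains, and atria also make sarcolipin and atrial natriuretic peptide. In the mouse, a sleeve of heart muscle of atrial type follows the pulmonary veins from the left atrium into the lung, so a dissected lung can hold heart muscle cells of its own as well as tissue carried along. In RNA of bulk lung tissue, fewer cells of a type and less RNA per cell cannot be told apart.

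Sequence before the transcription start is shown for *Actc1* and *Myl7*, the 2 genes of the 10 whose window of 250 bases holds a CArG box, the site to which serum response factor binds in muscle genes. The windows come from the RefSeq table of GRCm38.p6, which held 10 promoters of 9 of the genes. They are chr2:114052876-114053125 on the minus strand for *Actc1* and chr11:5898783-5899032 on the minus strand for *Myl7*. Both are written 5′ to 3′ with the last base next to the start, and the capitals mark the CArG box.
Actc1: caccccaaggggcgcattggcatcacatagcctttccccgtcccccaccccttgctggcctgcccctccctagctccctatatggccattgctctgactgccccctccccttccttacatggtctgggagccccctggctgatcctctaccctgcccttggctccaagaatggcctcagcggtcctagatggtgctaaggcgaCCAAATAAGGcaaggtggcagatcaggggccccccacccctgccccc
Myl7: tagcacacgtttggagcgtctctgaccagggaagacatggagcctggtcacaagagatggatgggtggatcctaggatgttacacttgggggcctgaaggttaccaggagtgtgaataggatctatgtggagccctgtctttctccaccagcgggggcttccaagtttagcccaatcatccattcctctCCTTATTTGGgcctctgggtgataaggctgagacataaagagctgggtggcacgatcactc

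The box lay 47 to 38 bases before the start of *Actc1* and 61 to 52 bases before that of *Myl7*. On either strand, 1.47% of the 32851 promoters in the table held a CArG box in the same window. Letters of other motifs were also searched on both strands. TATAAA was found in *Nppa* alone and in 12.4% of all promoters. AGATAA, a form of the site that GATA factors bind, was in *Tnnt2* alone and in 9.99% of all. Other forms of that site, such as the TGATAA in the *Myl7* window above, were not searched. CANNTG, the E-box, was found in 7 of the 9 genes and in 66.2% of all promoters. The MEF2 box was in none of the 9 and in 2.92% of all. These matches are a description of the letters only.

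Log2 values of the cardiac probe sets were low on these arrays. The median of all probe sets on an array was 4.79 to 4.84, and the mean log2 value was under 4 for 7 of the 17 cardiac probe sets, between 4 and 6 for 9, and above 6 for *Actc1* alone. The table held no detection calls, so a value near the bottom of the scale was not separated from background. By contrast, the lung itself was plainly measured. *Sftpc*, the surfactant protein of alveolar type II cells, was at 13.8 in both groups, and the 12 lung epithelial genes had mean log2 values of 6.06 to 13.8. The *Sftpc* level was the highest mean of all probe sets. At the top of the scale, equal values cannot show that *Sftpc* did not differ. The paper lists another *Sftpc* probe set as higher in LC-HFD. Signals of different probe sets cannot be compared as amounts of RNA, and the sums over a list given further on are weighted towards its brightest probe sets.

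Control probe sets separated the groups as well. The hybridization controls averaged 11.5 ± 0.0254 (SD, n = 3) on the LC-HFD arrays against 10.0 ± 0.0168 (SD, n = 3) on the LC-RD arrays. The 18S rRNA probe sets went the other way, at 7.61 and 12.5. *Gapdh* differed by 0.24 and beta-actin by 0.03 on the log2 scale. Signal at the 3′ end of control genes less that at their 5′ end, used as a covariate for RNA quality in an alternative fit, was 1.65 ± 0.0610 (SD, n = 3) in LC-HFD against 1.73 ± 0.0293 (SD, n = 3) in LC-RD. This 3′ less 5′ signal did not overlap between the groups, at most 1.696 in LC-HFD and at least 1.703 in LC-RD. A fit with it as covariate therefore cannot separate RNA quality from diet. The handling of the arrays and the diet cannot be told apart for any value below.

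**Figure D1:**
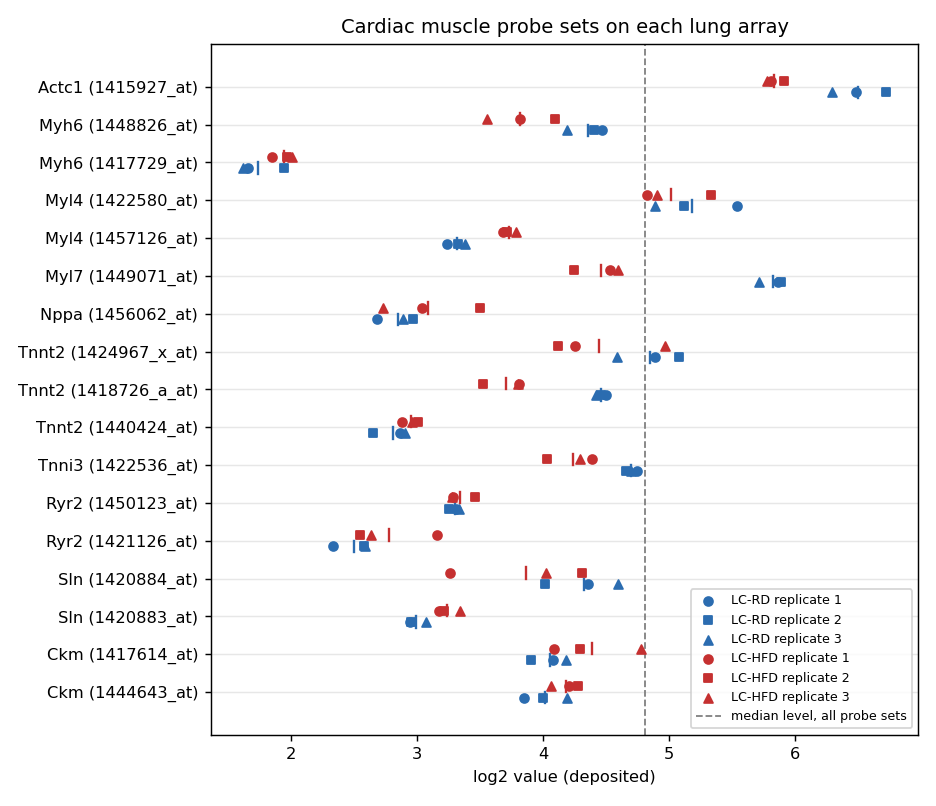
Deposited log2 value (x axis) of each cardiac muscle probe set (rows) on each of the 6 lung arrays, with LC-HFD in red, LC-RD in blue, a symbol per replicate and a short vertical line at each group mean. The dashed line is the median level of all probe sets. The red and blue points of Myl7 lie 1.12 log2 units apart at their nearest, whereas those of Nppa, Ckm and the brightest probe sets of Myl4 and Sln overlap.

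Of the 17 probe sets, 6 passed an adjusted p of 0.05 (limma with Benjamini-Hochberg adjustment over 45037 probe sets), which was 35.3% beside 25.0% of all probe sets tested. Of these 6, 5 were lower in LC-HFD, beside 13.6% of all probe sets, and 1 was higher, beside 11.3% of all. Only *Myl7* also passed a 2-fold change, which was 5.88% of the 17 beside 1.73% of all in either direction and 1.06% of all as lower. The values of the 2 groups did not overlap for 7 of the 17, or 41.2%, beside 43.8% of all. On each gene's brightest probe set (that of the highest mean over the 6 arrays), *Actc1*, *Myh6*, *Myl7* and *Tnni3* fell, none of the 10 rose, and 6 did not pass. The background for a fall on the brightest probe set was 16.2% of 18193 genes. The median difference, LC-HFD minus LC-RD, was -0.43 over the 10 brightest probe sets and 0.04 over all 17, beside 0.02 over the brightest probe sets of all genes and 0.04 over all probe sets.

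*Myl7*, the regulatory light chain of atrial myosin, had the largest fall of the 17 probe sets. Its probe set read 4.53, 4.25 and 4.59 in the LC-HFD lungs and 5.87, 5.89 and 5.71 in the LC-RD lungs. All 3 LC-RD lungs were above all 3 LC-HFD lungs, and no lung stood apart within its group. Its log2 value was 4.46 ± 0.184 (SD, n = 3) in LC-HFD and 5.82 ± 0.0966 (SD, n = 3) in LC-RD, a fall of 2.57-fold (log2 difference -1.36, SE 0.111, 95% interval -1.62 to -1.10, limma adjusted p = 0.000537). The size of this difference was at the 99.5th percentile of all probe sets. With each lung left out in turn, the log2 difference of *Myl7* stayed between -1.43 and -1.26 and passed in all 6 fits.

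*Myl4* encodes the atrial essential light chain, and its brightest probe set (1422580_at) read 4.82, 5.33 and 4.90 in LC-HFD and 5.54, 5.12 and 4.89 in LC-RD. The groups overlapped. The log2 difference was -0.16 (SE 0.195, 95% interval -0.62 to 0.30, limma adjusted p = 0.566), so a fall of the size seen for *Myl7* lies outside the interval. The difference was 0.02 without LC-RD replicate 1, -0.32 without LC-HFD replicate 2 and -0.57 with the RNA quality covariate, and none of these passed. The dimmer probe set of *Myl4* (1457126_at) went the other way, with log2 values of 3.68, 3.71 and 3.79 in LC-HFD and 3.24, 3.33 and 3.38 in LC-RD. It was the only cardiac probe set that rose (log2 difference 0.41, SE 0.0762, limma adjusted p = 0.00901), and it passed in all 6 fits with 1 lung left out but not with the RNA quality covariate (log2 difference 0.46, adjusted p = 0.0602). The 2 probe sets of *Myl4* therefore disagreed.

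The actin and the myosin heavy chain also fell, by less than 2-fold. *Actc1*, the actin of the heart's thin filament, read 5.81, 5.91 and 5.77 in LC-HFD and 6.49, 6.72 and 6.29 in LC-RD. The groups did not overlap, and LC-RD lungs were spread more widely than LC-HFD lungs. *Actc1* fell by 0.67 on the log2 scale (1.59-fold, SE 0.118, limma adjusted p = 0.00782) and passed in all 6 fits with 1 lung left out, with differences of -0.77 to -0.56. With the RNA quality covariate the log2 difference was -0.70 and did not pass (adjusted p = 0.0658). *Actc1* and *Myl7*, whose promoter windows with a CArG box are printed above, had the 2 largest falls on a brightest probe set. *Tnnt2*, with no such box in its windows, fell by more than *Actc1* on a dimmer probe set (log2 difference -0.75). No link between box and signal was tested.

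*Myh6*, the fast alpha myosin heavy chain of atria and of the adult mouse ventricle, read 3.81, 4.09 and 3.55 in LC-HFD and 4.47, 4.40 and 4.19 in LC-RD on its brightest probe set (1448826_at). The highest LC-HFD lung and the lowest LC-RD lung were 0.0926 log2 units apart. *Myh6* fell by 0.53 on the log2 scale (SE 0.148, limma adjusted p = 0.0375), but it passed in 1 of the 6 fits with a lung left out. Without LC-HFD replicate 3 the difference was -0.40 (adjusted p = 0.0774), and the call was also lost without LC-HFD replicate 1 or any single LC-RD lung, with adjusted p up to 0.122, and with the methods' t-test (adjusted p = 0.126). Over all probe sets fewer passed without an LC-RD lung too, as given for *Tnni3* below. With the RNA quality covariate *Myh6* passed with a larger log2 difference of -0.83 (adjusted p = 0.0321). The second *Myh6* probe set (1417729_at) averaged 1.94 in LC-HFD and 1.74 in LC-RD, with overlapping groups and a limma adjusted p of 0.207. *Myh6* shares near-identical coding sequence with *Myh7*, the beta heavy chain, and the array has 2 probe sets that the annotation gives to both. The brighter of these (1448554_s_at) averaged 7.32 in LC-HFD and 7.07 in LC-RD (limma adjusted p = 0.0946), and the dimmer (1448827_s_at) differed by -0.04. *Myh7* on its own brightest probe set averaged 8.50 in LC-HFD and 8.29 in LC-RD (limma adjusted p = 0.0773).

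The troponin subunits turn the calcium signal into movement of the thin filament. *Tnni3*, the inhibitory subunit of heart muscle, read 4.39, 4.03 and 4.29 in LC-HFD and 4.75, 4.66 and 4.70 in LC-RD. All LC-RD lungs were above all LC-HFD lungs by at least 0.269 log2 units. *Tnni3* fell by 0.46 on the log2 scale (SE 0.105, limma adjusted p = 0.0187). The call held without any single LC-HFD lung and was lost without any single LC-RD lung, at adjusted p of 0.0738, 0.0578 and 0.0555 without replicates 1, 2 and 3, while the difference stayed between -0.54 and -0.36 over the 6 fits. Over the whole array, 25.0% of probe sets passed with all 6 arrays. Without LC-RD replicates 1, 2 and 3 in turn, 13.0%, 12.9% and 17.8% passed. Without LC-HFD replicates 1, 2 and 3 in turn, 25.6%, 20.8% and 20.5% passed. The *Tnni3* call was also lost with the RNA quality covariate (log2 difference -0.30, adjusted p = 0.204) and with the methods' t-test (adjusted p = 0.0644).

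*Tnnt2*, the subunit that binds troponin to tropomyosin, has 3 probe sets, which differed in their outcome. The brightest (1424967_x_at, of the kind whose probes can also match other transcripts) read 4.25, 4.12 and 4.97 in LC-HFD and 4.89, 5.08 and 4.59 in LC-RD. LC-HFD replicate 3 lay among the LC-RD lungs, and the log2 difference of -0.41 did not pass (95% interval -0.95 to 0.14, limma adjusted p = 0.239). Without that lung the difference was -0.67 and passed (limma adjusted p = 0.0303), so 1 lung decided this call. The second probe set (1418726_a_at) read 3.80, 3.52 and 3.80 in LC-HFD and 4.50, 4.46 and 4.42 in LC-RD. Here LC-HFD replicate 3 did not stand apart, and *Tnnt2* fell by 0.75 on the log2 scale (1.69-fold, SE 0.0975, limma adjusted p = 0.00253) with a pass in all 6 fits. The third probe set (1440424_at) averaged 2.95 in LC-HFD against 2.80 in LC-RD and did not pass (limma adjusted p = 0.281).

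The calcium handling genes of the list, *Ryr2* and *Sln*, did not pass on any of their probe sets. *Ryr2*, the calcium release channel of the heart's internal store, averaged 3.34 ± 0.102 (SD, n = 3) in LC-HFD and 3.30 ± 0.0379 (SD, n = 3) in LC-RD on its brightest probe set, a log2 difference of 0.04 (95% interval -0.15 to 0.23, limma adjusted p = 0.717). Its second probe set (1421126_at) read 3.16, 2.54 and 2.63 in LC-HFD and 2.33, 2.57 and 2.58 in LC-RD, where LC-HFD replicate 1 alone was above the rest. *Sln*, sarcolipin, an inhibitor of the calcium pump in atria and skeletal muscle, read 3.26, 4.31 and 4.02 in LC-HFD and 4.36, 4.02 and 4.60 in LC-RD. The LC-HFD lungs spread over 1.05 log2 units, and their SD of 0.540 was at the 99.5th percentile of all probe sets. The log2 difference of *Sln* was -0.46 (95% interval -1.10 to 0.18, limma adjusted p = 0.252) and moved from -0.16 without LC-HFD replicate 1 to -0.68 without LC-HFD replicate 2. The dimmer *Sln* probe set (1420883_at) read higher in all 3 LC-HFD lungs, with a difference of 0.25 that did not pass (limma adjusted p = 0.0601).

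*Nppa*, which encodes atrial natriuretic peptide, the hormone atria release when stretched, read 3.04, 3.50 and 2.72 in LC-HFD and 2.68, 2.97 and 2.89 in LC-RD. The log2 difference was 0.24 (95% interval -0.21 to 0.69, limma adjusted p = 0.377), and it was 0.04 without LC-HFD replicate 2. *Ckm*, the creatine kinase of heart and skeletal muscle, read 4.09, 4.29 and 4.78 in LC-HFD and 4.08, 3.90 and 4.18 in LC-RD on its brightest probe set. LC-HFD replicate 3 was the high lung, and the log2 difference of 0.33 (95% interval -0.09 to 0.75, limma adjusted p = 0.210) was 0.13 without it. The second *Ckm* probe set (1444643_at) averaged 4.18 in LC-HFD and 4.01 in LC-RD (limma adjusted p = 0.286).

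**Figure D2:**
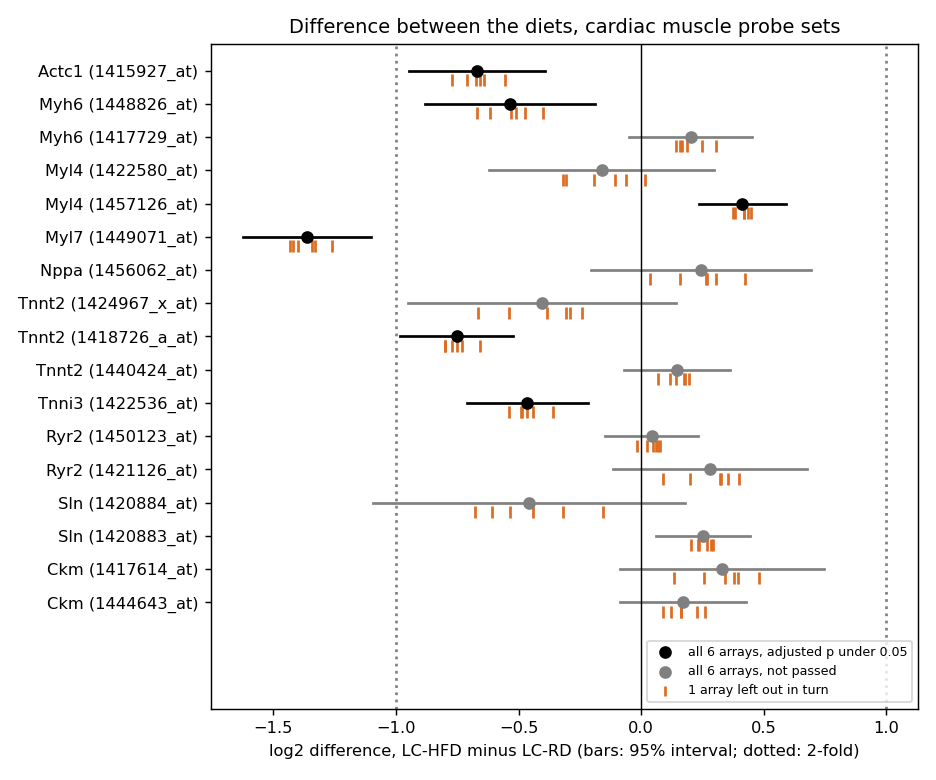
Log2 difference, LC-HFD minus LC-RD (x axis), of each cardiac muscle probe set (rows) over all 6 arrays, with its 95% interval, in black where the adjusted p was under 0.05 and in grey otherwise. Orange ticks are the same difference with each array left out in turn and dotted lines mark a 2-fold change. The ticks of Myl7 stay between -1.43 and -1.26, and those of the brightest Sln probe set run from -0.68 to -0.16.

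The sign of the difference went with the level of the probe set. All 7 cardiac probe sets with a mean log2 value under 4 were higher in LC-HFD, with a median difference of 0.24, and 1 of them passed. In that range 72.4% of the 17442 probe sets of the array were also higher in LC-HFD, with a median difference of 0.12. Between 4 and 6, 2 of the 9 cardiac probe sets were higher in LC-HFD and 4 passed as lower, beside 51.9% of all probe sets higher, 16.8% passed as lower and a median of 0.02. *Actc1*, the only member above 6, was lower, and in that range 40.8% of all probe sets were higher in LC-HFD. The part of this shift with level in the results was not tested.

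Averaged over the brightest probe sets of the 10 genes, the LC-HFD lungs were at 4.13, 4.33 and 4.29 and the LC-RD lungs at 4.64, 4.60 and 4.54 on the log2 scale. The groups did not overlap. Without *Myl7* the averages of the remaining 9 genes were 4.08, 4.34 and 4.25 in LC-HFD and 4.50, 4.46 and 4.40 in LC-RD, still apart. Over the 6 genes that did not pass on their brightest probe set, they were 3.79, 4.17 and 4.11 in LC-HFD and 4.14, 4.06 and 4.08 in LC-RD, where LC-HFD replicate 1 was the lowest and LC-HFD replicate 2 the highest of the 6 lungs. The mean of a set that includes the passed genes is a description only.

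No lung was high or low for the whole list. LC-HFD replicate 2 was the highest of its group for 6 of the 10 genes and the lowest for 3, LC-HFD replicate 1 the highest for 1 and the lowest for 3, and LC-HFD replicate 3 the highest for 3 and the lowest for 4. The LC-RD lungs were the highest for 3, 4 and 3 genes in the order of their replicate numbers. The widest deviation from a group mean was that of *Sln* in LC-HFD replicate 1 (-0.60), then that of *Tnnt2* in LC-HFD replicate 3 (0.52) and of *Sln* in LC-HFD replicate 2 (0.44). In LC-RD the widest was that of *Myl4* in replicate 1 (0.36). The deviations of 2 genes ran together about as often as against each other, with a correlation above 0 for 22 of the 45 pairs of genes over the 6 arrays and a median of -0.03. Pairs ranged from -0.96 for *Myl7* with *Ryr2* to 0.79 for *Myl7* with *Tnnt2*, and all share the same 6 arrays.

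**Figure D3:**
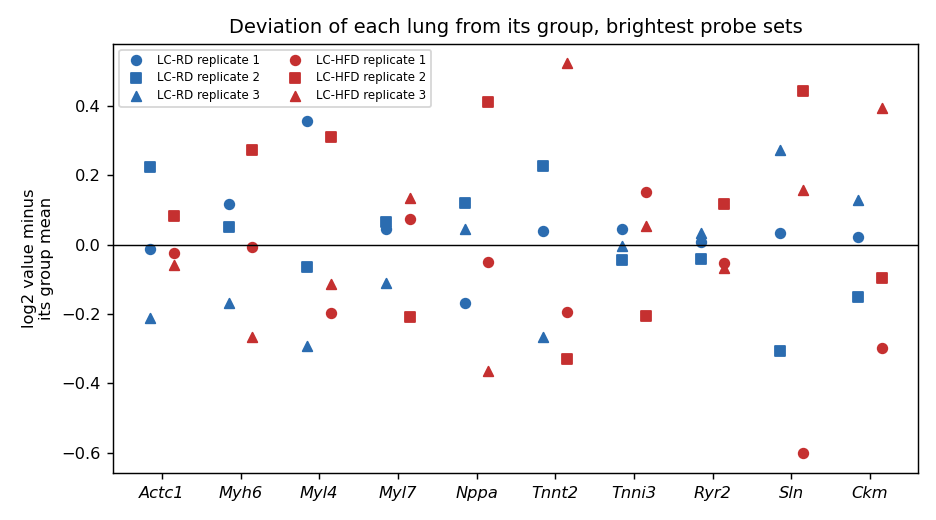
Log2 value of each lung minus its group mean (y axis) for the brightest probe set of each of the 10 cardiac muscle genes (x axis), with LC-HFD in red, LC-RD in blue and a symbol per replicate. Sln, Tnnt2, Nppa and Ckm spread over 0.69 log2 units or more in LC-HFD, and no symbol stays at the top or the bottom across the genes.

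Other heart muscle genes were taken from 4 lists, of which 86 of 93 genes had a probe set of their own. The mean log2 value was at least 6 for 27 of the 86. *Hopx*, at 11.9, is also counted among the lung epithelial genes, so these lists do not read heart muscle alone. On the brightest probe sets of the 86 genes 3 rose, 4 fell and 79 did not pass. So 7 of 86 passed beside 27.3% of all genes, and the median difference was 0.09. Without LC-RD replicate 1, 4 of the 86 passed, beside 2520 of all 18193 genes. The split of 3 higher and 4 lower became 7 and 3 after quantile normalization, where 4595 of all genes passed. After centering each array on its median it became 7 and 4, where 4948 of all genes passed. Among 30 further sarcomere genes, *Ankrd1*, a stretch-responsive protein of the sarcomere, fell by 0.96 on the log2 scale (limma adjusted p = 0.00482) and *Nexn*, an actin-binding protein of the Z-disk, fell by 0.47. *Tpm1*, a tropomyosin that many tissues make, rose by 0.43, and *Des*, the intermediate filament of muscle, was at 7.03 in LC-HFD against 6.60 in LC-RD without passing (limma adjusted p = 0.0611). Of 19 genes of muscle energy metabolism, *Pdk4*, a kinase that turns fuel use away from glucose, rose by 0.94 (limma adjusted p = 0.00107), *Eno3*, the muscle enolase, rose by 0.26 and *Cox7a1*, a muscle subunit of cytochrome c oxidase, fell by 0.60 on the log2 scale.

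Of 21 calcium handling and channel genes, *Asph*, whose products include the calcium store protein junctin, was the only one that passed. It fell by 0.35 on the log2 scale. Beside these lists, 27.3% of all genes passed on their brightest probe set. *Pln*, phospholamban, was at 3.41 in LC-HFD against 3.85 in LC-RD (limma adjusted p = 0.0806). *Popdc2* of the same list went the other way, at 5.25 in LC-HFD against 4.83 in LC-RD (limma adjusted p = 0.0681). Over the 21 genes the median difference was 0.09, and 6 had a negative difference. None of the 16 transcription factors and secreted peptides passed in limma. Of the 16, 6 had an unadjusted limma p under 0.05, beside 7668 of all 18193 genes on their brightest probe set. *Tbx5* had the largest difference of the 16, at 6.63 in LC-HFD and 6.25 in LC-RD (limma adjusted p = 0.113). *Nkx2-5*, the factor that defines heart muscle, was at 4.29 in LC-HFD against 4.45 in LC-RD, and *Myl2*, the ventricular regulatory light chain, 2.97 and 2.77.

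By chamber, *Myl7* was the only 1 of 8 atrial genes that passed, beside 27.3% of all genes on their brightest probe set. *Myl4*, *Myl7*, *Nppa* and *Sln* of the atrial list are also among the 10 cardiac genes, so it is not a separate list. None of 5 ventricular genes passed in limma. Of the 5, 2 had an unadjusted limma p under 0.05, beside 7668 of all 18193 genes. The median difference was 0.08 over the atrial genes, 4 of which had a negative difference, and 0.20 over the ventricular genes, 1 of which did. Of the other atrial genes, *Kcnj3*, a potassium channel subunit, was at 3.57 in LC-HFD against 3.21 in LC-RD, and *Bmp10*, a growth factor of the heart, at 4.09 against 3.83, and neither passed (limma adjusted p = 0.223 and 0.0786).

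Skeletal muscle of the chest wall, which also makes *Ckm* and *Sln*, was read by 25 genes. Of these *Mylk2*, *Myoz1* and *Acta1* rose, by 0.47, 0.43 and 0.37 on the log2 scale, none fell and 22 did not pass. The background for a rise was 11.1% of all genes on the brightest probe set, so 3 of 25 is near it. Without LC-HFD replicate 2, 5 rose, and 4067 of all 18193 genes passed in either direction. The median difference of the 25 genes was 0.22, the mean log2 value was under 4 for 16 of them and none reached 6. Their summed signal was 8.52 to 8.64 in LC-HFD and 8.31 to 8.39 in LC-RD on the log2 scale. The summed signal of the 10 cardiac genes, of which *Actc1* and *Myl7* are the brightest in LC-RD, was 7.69 to 7.86 in LC-HFD and 8.17 to 8.36 in LC-RD. Of 12 smooth muscle genes *Tpm2* rose by 0.79, *Mylk* fell by 0.32 on the log2 scale and 10 did not pass. Of all genes, 27.3% passed.

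Other tissue that a dissected lung can carry was read in the same way. The background on the brightest probe set was 11.1% of all genes for a rise and 16.2% for a fall. Of 10 fat genes 4 rose, among them *Adipoq*, the hormone adiponectin, by 0.70, and 1 fell, *Cidea*. The mean log2 value was under 4 for 5 of the 10, with *Adipoq* at 2.97 and *Cidea* at 3.18. In that range 72.4% of all probe sets were higher in LC-HFD. Of 12 genes of airway cartilage and oesophagus 2 rose, *Sprr3* by 0.55 and *Krt6a* by 0.28, and none fell. None of 11 thymus genes passed in limma, with 1 at an unadjusted p under 0.05, beside 7668 of all 18193 genes. Of 5 red cell genes *Bpgm* fell by 0.33 on the log2 scale. Of the 12 lung epithelial genes *Nkx2-1* rose by 1.26, *Scgb3a2* fell by 0.53 on the log2 scale and 10 did not pass. The part of other tissue in the cardiac results was not tested.

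**Figure D4:**
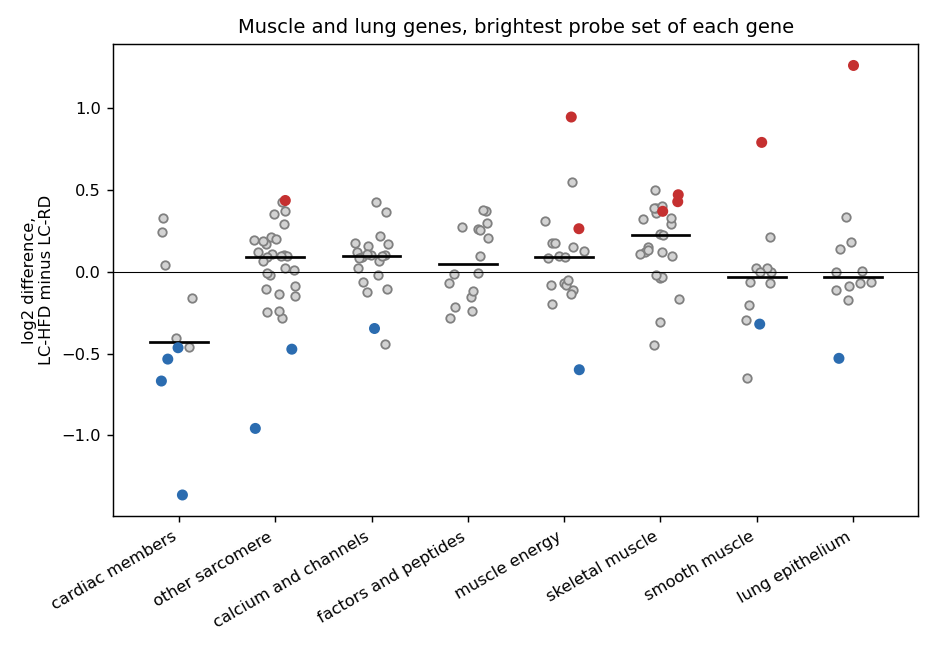
Log2 difference, LC-HFD minus LC-RD (y axis), of the brightest probe set of each gene, in columns for the 10 cardiac muscle genes, the 4 lists of other heart muscle genes and the skeletal muscle, smooth muscle and lung epithelial lists. Red and blue points passed as higher and lower in LC-HFD, grey points did not pass, and bars are list medians. The bar of the 10 cardiac genes is at -0.43 and that of skeletal muscle at 0.22.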

How the data were processed

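Total RNA of 6 mouse lungs, 3 LC-HFD and 3 LC-RD, was measured on 6 arrays. The deposited values are on the log2 scale. Per the labels' processing notes the authors made them with GCRMA, and the methods name Partek software for the array files; versions and settings of these were not given by the sources used here. The annotation gave 1 gene to 34958 of 45101 probe sets, several to 932 and none to 9211, and 34754 symbols were matched by Entrez ID. After 64 control probe sets were left out, 45037 were tested with limma 3.58.1 in R 4.3.3 (lmFit and eBayes with default settings, two-sided, Benjamini-Hochberg adjustment), which was tested on simulated data. A probe set passed at an adjusted p under 0.05 and was called if it also changed over 2-fold. Genes other than the 10 were counted on their brightest probe set; those named had the largest differences of their list, passed, or define a cell type. The number of arrays limits the precision. Summed signals are log2 of the summed linear values. The members and lists were chosen with earlier results of these data known. Alternatives were another test (the methods' t-test), variance model, weights, scaling, filters, a replicate block, a covariate and leaving out each array. Python 3.11.15 was used for tables and figures.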

Additional observations from a re-analysis of the deposited data

How the results depend on the processing

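The 6 cardiac probe sets that passed became 4 with the methods' t-test, 1 when a mean of at least 6 was required (1 of the 17 was tested and 0 were called), 3 with the covariate (3′ minus 5′ signal of control genes) and 3 with a fold threshold of 1.5. With each array left out they were 4 to 6, beside 12.9% to 25.6% of all probe sets that passed, and those called 1 to 1. With the covariate *Actc1*, the dimmer *Myl4* probe set and *Tnni3* were lost (log2 differences -0.70, 0.46 and -0.30, limma adjusted p = 0.0658, 0.0602 and 0.204), and with the t-test *Myh6* and *Tnni3* (adjusted p = 0.126 and 0.0644). Of the brightest probe sets that had not passed, it moved *Tnnt2* from -0.41 to -0.03, *Myl4* from -0.16 to -0.57, *Sln* from -0.46 to -0.89, *Nppa* from 0.24 to -0.08 and *Ryr2* from 0.04 to -0.08, and it moved *Myh6* from -0.53 to -0.83. The covariate, which did not overlap between the groups, also cut the probe sets that passed over the array from 25.0% to 7.90%. With the t-test 17.7% of all probe sets passed. Of 18193 genes on their brightest probe set, 4965 passed in the main fit and 3875 with the t-test. An intensity trend with robust variance gave 6556, array weights 5547, median centering 4948 and the covariate 1500. No share over the array was made for a fold threshold of 1.5 or for any probe set of a gene. *Myl7* fell under all alternatives run on it, with log2 differences of -1.43 to -1.17. The 7 other heart muscle genes that passed became 4 with the t-test, 16 with an intensity trend and robust variance, 11 with median centering, 15 of 57 tested with a mean of at least 4 (beside 42.5% of all probe sets there), 14 of 27 tested with a mean of at least 6 (beside 55.0%), 3 with the covariate and 21 (13 higher, 8 lower) when any probe set of a gene could pass, and were 4 to 8 with an array left out, 4 without LC-RD replicate 1. The 3 skeletal muscle genes became 5 with array weights, 1 with the covariate, 5 with any probe set and 0 at a mean of at least 6, where none was tested, and were 2 to 5 with an array left out, 5 without LC-HFD replicate 2 and 2 without LC-HFD replicate 3, LC-RD replicate 1 or LC-RD replicate 2. The cause was not tested. The deviations of same-numbered lungs correlated at -0.04, -0.09 and -0.03, which showed no pairing by replicate number. As deviations from means of 3 arrays, these values cannot settle whether the lungs were paired. With the replicate number as a block 6 cardiac probe sets passed and 1 was called, with 7 other heart muscle genes and 3 skeletal muscle genes, while the probe sets that passed over the array went from 11250 to 7906.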

Other observations

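Over the 6 arrays the genes whose log2 values ran most like the mean of the 10 cardiac genes, among 14381 probe sets of exactly 1 other gene whose mean over the arrays was 6 or more, were *Kank1* and *Tbc1d8b* (Pearson r of 0.998 each) and *Zbtb14* and *Yy1* (0.997 each), followed by *Dicer1*, *Zmym4*, *Mindy2*, *Chd2*, *Aph1a* and *Alkbh7* (0.995 to 0.994). The log2 differences of these 10 were -0.51 to -0.19. After each group mean was taken away, the likeness was highest for *Rab14* (1.00), *Kank1* (0.997) and *Acaca* (0.996). With 6 arrays in 2 separate groups and 14381 probe sets searched, these correlations are a description with no p.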
